A study of Homo sapiens with 6 samples.

Results

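The SOCS (suppressor of cytokine signaling) family is made up of CISH and SOCS1 to SOCS7. The 8 genes were taken by symbol from a table of ribosome footprint counts on 19330 transcripts, 1 per gene, and all 8 were found. The footprints came from K562 cells, an established line grown from a human chronic myelogenous leukemia. For ribosome profiling (Ribo-Seq), lysates are digested with RNase I and the fragments protected by ribosomes are sequenced, so that the count on a coding sequence (CDS) measures its ribosome occupancy. The 3 sgN6AMT1 libraries came from cells transduced with pLentiCRISPRv2 carrying Cas9 and a guide against N6AMT1, the methyltransferase of the translation termination factor eRF1. The 3 sgCtrl libraries came from cells given the same vector with a guide against, per the labels, the olfactory receptor gene OR11A1 or OR2M49. The methods of the study write OR2M4 for the latter and also name a guide against EGFP. Which control guide each library carried is not given in the labels. Both groups were selected with puromycin for 48 h and kept in routine medium until 10 days post infection. Neither group was described as a clone, so each is a transduced pool in which some cells may keep N6AMT1. In such bulk samples, fewer cells that express a gene and less of its mRNA per cell cannot be told apart, and matched mRNA levels were not analysed here.

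Library totals ranged from 1821356 to 2969736 counts. N6AMT1 itself had 25, 24 and 34 counts in sgCtrl against 10, 9 and 8 in sgN6AMT1, a log2 fold change (log2FC) of -1.51 (SE 0.31). All 10 markers of K562 cells on the list used here (such as GATA1, KLF1 and HBG1) had footprints in every library. In sgN6AMT1, 2 of them were called higher and 5 lower, where 12.9% of all tested genes were called higher and 13.9% lower. LMO2 had the largest change among the 10, a log2FC of -1.44 (SE 0.17). Of 10 markers of T cells, B cells, fibroblasts and epithelial cells, MS4A1 and KRT5 were at 0 everywhere, whereas CD3D stood at 27.6 to 39.0 CPM (the count scaled to the TMM-adjusted library total), COL1A2 at 22.8 to 33.0 CPM and EPCAM at 162 to 196 CPM. The sum of those 10 markers was 232 to 270 CPM in sgCtrl and 245 to 256 CPM in sgN6AMT1, so the groups overlapped, and none of the 4 with enough counts for a test was called.

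SOCS proteins are feedback inhibitors of cytokine signaling. A cytokine receptor carries JAK kinases, which phosphorylate it and the STAT transcription factors, and the STATs then switch on target genes that include CISH and several SOCS genes. Each family member has a central SH2 domain, which binds phosphotyrosine, and a C-terminal SOCS box, which recruits elongin B, elongin C and the cullin CUL5 to form a ubiquitin ligase. K562 cells carry the BCR-ABL1 fusion kinase, known for activating STAT5 without a cytokine.

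Regulatory sequence upstream of CISH and SOCS1 is shown because these were the members with the largest fold changes below, and because CISH is a textbook STAT5 target and SOCS1 a textbook target of interferon signaling. The windows are the 250 bases before the start of each gene in RefSeq (GRCh38.p14), both on the minus strand and written 5′ to 3′: chr3:50611775-50612024 for CISH and chr16:11256205-11256454 for SOCS1. Capitals mark matches to TTCNNNGAA, the palindrome that STAT dimers bind, in CISH, and to GAAANNGAAA, searched on both strands as a form of the element that interferon regulatory factors bind, in SOCS1.
CISH: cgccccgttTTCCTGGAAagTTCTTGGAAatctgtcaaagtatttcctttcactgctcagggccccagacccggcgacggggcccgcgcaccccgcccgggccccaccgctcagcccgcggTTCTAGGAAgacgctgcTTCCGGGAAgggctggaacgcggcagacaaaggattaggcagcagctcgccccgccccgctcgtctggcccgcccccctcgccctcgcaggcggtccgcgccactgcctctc
SOCS1: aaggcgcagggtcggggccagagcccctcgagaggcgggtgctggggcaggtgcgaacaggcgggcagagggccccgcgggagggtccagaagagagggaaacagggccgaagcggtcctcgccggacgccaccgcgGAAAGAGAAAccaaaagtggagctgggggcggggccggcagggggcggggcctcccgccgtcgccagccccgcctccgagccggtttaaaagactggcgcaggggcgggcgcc
The CISH window held 4 matches, TTCCTGGAA, TTCTTGGAA, TTCTAGGAA and TTCCGGGAA, whose first bases lay 241, 230, 129 and 112 bases before the start. None of them overlapped another. At least 1 such match was present in 6.57% of the 35116 RefSeq windows of the same length, and 4 or more in 0.0142%, or 5 windows. SOCS1 had no match to TTCNNNGAA and 1 match to GAAANNGAAA, which reads GAAAGAGAAA and begins 113 bases before the start. That motif was found in 3.02% of all windows and not in the CISH window. The windows of SOCS3, SOCS4 and SOCS6 held neither motif. Their RefSeq starts lay away from the listed transcript starts, by 410 and 848 bases for SOCS3, 391 for SOCS4 and 25145 for SOCS6. For CISH and SOCS1 the distances were 2 and 0 bases. The 250 bases directly before the listed starts of SOCS3, SOCS4 and SOCS6 were therefore not covered by these windows. The set of windows used here covered 5 of the 8 members. It held none for SOCS2, SOCS5 and SOCS7, so these were not searched. These matches are letters in a window and not measured binding sites.

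CISH, SOCS2 and SOCS1 were higher in the sgN6AMT1 libraries, and the other 5 members were not separated between the groups. The family was chosen with this contrast known, SOCS1 being among the genes with the largest increases, so the values of the members in it are a description without a p. Of the 8 members, 6 had enough counts for the fit across all genes, and SOCS6 and SOCS7 were removed by the filter on low counts. In that fit (edgeR quasi-likelihood test, Benjamini-Hochberg adjusted p under 0.05), 3 members were past the threshold in the higher direction and 0 in the lower one. Over the 9202 genes tested, 26.9% were past it, 12.9% higher and 13.9% lower. With library totals in place of TMM (trimmed-mean) factors, the split over all genes moved from 1191 higher and 1282 lower to 1560 higher and 976 lower, while the same 3 members were past the threshold. The groups did not overlap in CPM for those 3 members alone among the 8, and for 37.5% of all genes tested. Nothing about the family as a whole is read from these counts, since the members were chosen on this contrast.

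**Figure D1:**
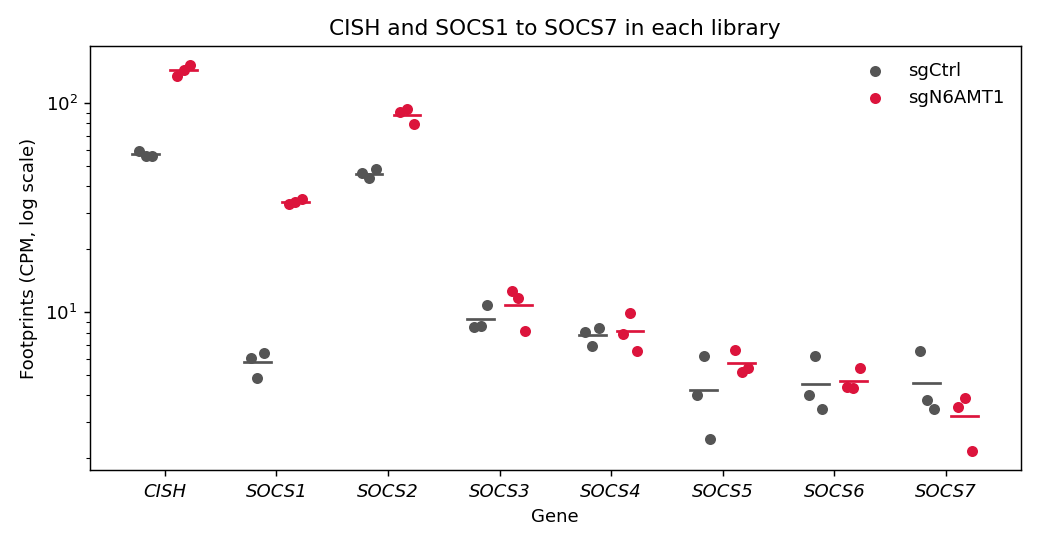
Footprints on each of the 8 genes, in TMM-scaled CPM on a log axis, with 1 point per library (3 sgCtrl in grey, 3 sgN6AMT1 in red) and a bar at each group mean. CISH, SOCS1 and SOCS2 have every red point above every grey point, and the points of the other 5 genes overlap.

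CISH encodes the cytokine-inducible SH2 protein, which docks on receptor phosphotyrosines that STAT5 also uses. It lies on chromosome 3 at 50606489 to 50611774 (GRCh38, minus strand), and its listed transcript ENST00000443053.6 has a CDS of 825 bases in 3 coding exons. Its levels were 58.8, 56.2 and 56.2 CPM in the sgCtrl libraries and 135, 144 and 152 CPM in the sgN6AMT1 libraries. The lowest sgN6AMT1 value was above the highest sgCtrl value, and the 3 sgCtrl values were nearly the same. They were closer than counting alone gives on average (chi-square per degree of freedom 0.082), so their SD may understate the error. These rest on 117, 163 and 114 counts against 309, 334 and 280. The mean went from 57.1 ± 1.48 to 144 ± 8.29 CPM (SD, n = 3 each), a log2FC of 1.33 (SE 0.097) or 2.52-fold. Of the 9202 genes tested, 108 (1.17%) had a larger log2FC.

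SOCS1 had the largest fold change of the family from a low starting level. It encodes an inhibitor that blocks JAK kinases directly through its kinase inhibitory region and is known for restraining interferon gamma signaling. The gene is on chromosome 16 at 11254417 to 11256204 (minus strand), and transcript ENST00000332029.2 has a CDS of 633 bases in a single coding exon. The sgCtrl libraries gave 6.03, 4.83 and 6.41 CPM and the sgN6AMT1 libraries 32.9, 33.7 and 34.7 CPM. There was a wide gap between the groups and little spread within either. That spread was below what counting alone gives on average (chi-square per degree of freedom 0.30 in sgCtrl and 0.053 in sgN6AMT1). The SD may therefore understate the error. Behind these levels were 12, 14 and 13 counts in sgCtrl, or 39 in all, and 75, 78 and 64 in sgN6AMT1. The mean went from 5.75 ± 0.826 to 33.8 ± 0.937 CPM (SD, n = 3 each), a log2FC of 2.57 (SE 0.22) or 5.93-fold. Only 18 of the genes tested (0.196%) had a larger one.

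SOCS2, a regulator of growth hormone receptor signaling, showed the smallest of the 3 fold changes. Its gene spans 93569814 to 93583487 of chromosome 12 (plus strand), with a CDS of 594 bases in 2 coding exons of transcript ENST00000622746.4. Its levels were 46.2, 43.8 and 48.3 CPM in sgCtrl and 91.2, 93.8 and 79.8 CPM in sgN6AMT1. Again the groups did not overlap, and the sgN6AMT1 library of replicate 3 was the lowest of its group. The counts were 92, 127 and 98 against 208, 217 and 147. The mean went from 46.1 ± 2.27 to 88.2 ± 7.42 CPM (SD, n = 3 each), a log2FC of 0.95 (SE 0.11) or 1.93-fold, and 244 genes (2.65%) had a larger one. GENCODE lists 2 pseudogenes, SOCS2P1 and SOCS2P2, whose reads the counting could share with SOCS2, so its counts are less certain than those of CISH and SOCS1.

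SOCS3 blocks JAK kinases as SOCS1 does, but binds the shared receptor chain of the interleukin 6 family. Its levels of 8.54, 8.62 and 10.8 CPM in sgCtrl lay among the 12.7, 11.7 and 8.14 CPM of sgN6AMT1. The sgN6AMT1 library of replicate 3 was below all the sgCtrl libraries and the other two were above them. The log2FC was 0.25 (SE 0.26), with a 95% interval from -0.26 to 0.76. That interval ends well below the values of SOCS1 and CISH. It overlaps the 95% interval of SOCS2, which runs from 0.73 to 1.17.

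SOCS4 and SOCS5 are long members, as SOCS6 and SOCS7 are, and are known for acting on the EGF receptor. SOCS4 stood at 8.04, 6.90 and 8.38 CPM in sgCtrl and 7.89, 9.94 and 6.51 CPM in sgN6AMT1, with 53 counts summed over each group. Its log2FC of 0.10 (SE 0.29) had a 95% interval from -0.46 to 0.67 and changed sign when replicate 2 of either group was left out. SOCS5 stood at 4.02, 6.21 and 2.46 CPM in sgCtrl and 6.57, 5.18 and 5.43 CPM in sgN6AMT1, from 31 and 37 counts. The sgCtrl libraries of SOCS5 spread more widely than those of any other member relative to their mean, and its log2FC was 0.36 (SE 0.36, 95% interval from -0.35 to 1.07). That interval reaches past the value of SOCS2, so these counts do not tell a change of that size from none. GENCODE lists 5 pseudogenes of SOCS5.

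SOCS6 and SOCS7, known as partners of insulin receptor and KIT signaling, were the least covered. SOCS6 had 8, 18 and 7 counts in sgCtrl against 10, 10 and 10 in sgN6AMT1, or 4.02, 6.21 and 3.45 CPM against 4.38, 4.32 and 5.43 CPM. SOCS7 had 13, 11 and 7 counts against 8, 9 and 4, or 6.53, 3.79 and 3.45 CPM against 3.51, 3.89 and 2.17 CPM. The groups overlapped for both genes. GENCODE lists 1 pseudogene of SOCS6, SOCS6P1. Without the filter on low counts, the log2FC values were -0.04 (SE 0.38) for SOCS6 and -0.46 (SE 0.43) for SOCS7. SOCS7 was thus the member with the lowest estimate, with an error nearly as large as the estimate itself.

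**Figure D2:**
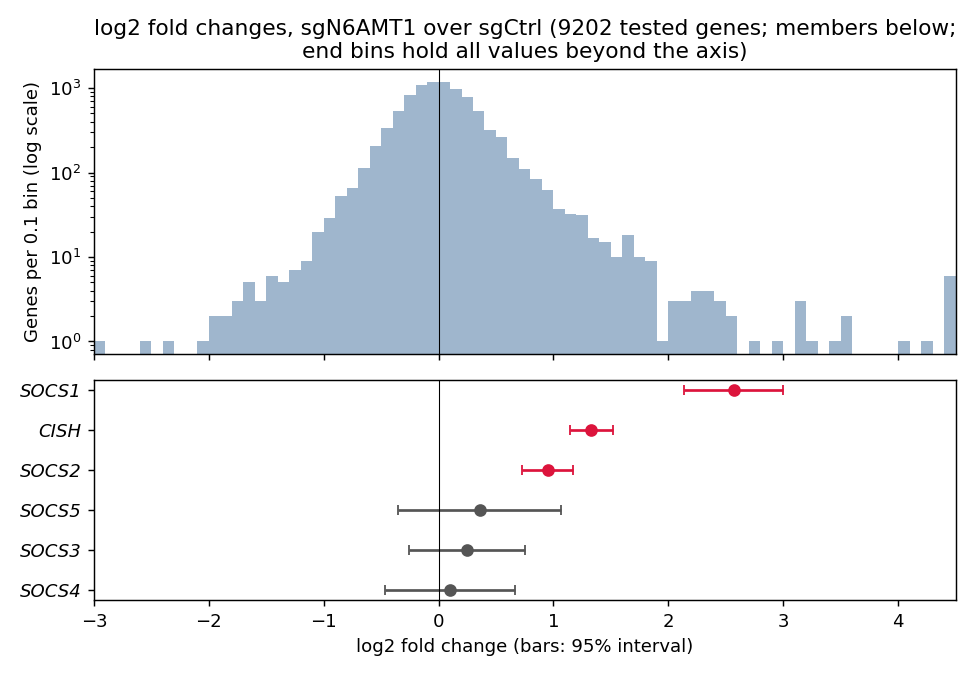
The upper plot counts the 9202 tested genes by log2FC (sgN6AMT1 over sgCtrl) in bins of 0.1 on a log axis, and the lower plot gives the 6 tested members with 95% intervals, in red where past the threshold. SOCS1, CISH and SOCS2 lie to the right of most genes at 2.57, 1.33 and 0.95, and the intervals of SOCS3, SOCS4 and SOCS5 include 0.

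Sums and shares over the family restate the member values above. They are a description only, since the members were chosen on this contrast. Summed over the 8 genes, the level was 139 ± 2.85 CPM in sgCtrl and 298.5 ± 7.13 CPM in sgN6AMT1 (SD, n = 3 each). CISH, SOCS1 and SOCS2 together took 78.1% ± 1.37 of the family's counts in sgCtrl and 89.1% ± 1.32 in sgN6AMT1. The other 5 members summed to 30.5 ± 1.67 CPM and 32.6 ± 4.24 CPM, and their values overlapped. Within the family, the share of SOCS1 went from 4.12% ± 0.539 to 11.3% ± 0.433 and that of CISH from 40.9% ± 0.567 to 48.2% ± 3.02. The share of SOCS2 was 33.1% ± 1.37 in sgCtrl and 29.5% ± 2.11 in sgN6AMT1, where its level had also gone up. SOCS1 and SOCS3, the members with a kinase inhibitory region, changed places. There were 0.56 to 0.706 SOCS1 counts for every SOCS3 count in the sgCtrl libraries and 2.59 to 4.27 in the sgN6AMT1 libraries.

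Levels of different genes were compared per length, as CPM per kilobase of CDS. In sgCtrl the order was SOCS2 (77.6 ± 3.82), CISH (69.2 ± 1.80), SOCS3 (13.8 ± 1.94), SOCS1 (9.09 ± 1.31), SOCS4 (5.89 ± 0.589), SOCS6 (2.84 ± 0.906), SOCS5 (2.63 ± 1.17) and SOCS7 (2.37 ± 0.872), as means with SD (n = 3). The library values of SOCS6, SOCS5 and SOCS7 overlapped, so the order of these 3 is not settled. The 5 other pairs of neighbours in the order did not overlap. SOCS2 and CISH stood at percentiles 76.7 and 74.6 of the 8607 tested genes with a known CDS length, where the median was 24.3 CPM per kilobase. SOCS3 stood at percentile 35.3, SOCS1 at 24.4, SOCS4 at 14.6 and SOCS5 at 3.78. In sgN6AMT1 the order began with CISH (174 ± 10.0), SOCS2 (149 ± 12.5) and SOCS1 (53.4 ± 1.48), ahead of SOCS3 (16.1 ± 3.55). Per length, CISH and SOCS2 thus traded first place, and SOCS1 passed SOCS3. The lengths are those of the listed transcripts, which for CISH and SOCS2 are not the reference (MANE Select) ones. CDS lengths of other transcripts were not tried. In CPM without division by length, the mean of CISH was above that of SOCS2 in both groups.

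**Figure D3:**
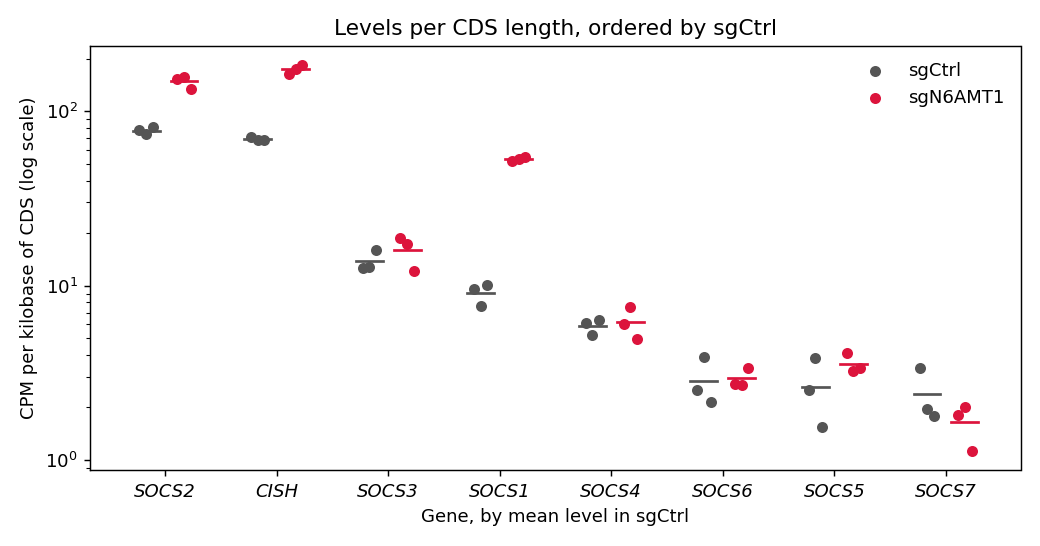
Level of each gene in CPM per kilobase of CDS on a log axis, ordered by the sgCtrl mean, with 1 point per library (sgCtrl grey, sgN6AMT1 red) and bars at the group means. SOCS2 and CISH lead in both groups, and SOCS1 moves from 9.09 to 53.4, past SOCS3.

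The 3 members past the threshold, together with SOCS3, were the short ones. Their CDS had 825 (CISH), 633 (SOCS1), 594 (SOCS2) and 675 (SOCS3) bases, against 1320 (SOCS4), 1608 (SOCS5), 1605 (SOCS6) and 1935 (SOCS7). GC content of the CDS ranged from 40.4% in SOCS4 to 71.4% in SOCS1, with SOCS3 at 65.0% and CISH at 61.3%. No exon of another annotated gene overlapped the CDS of any member. In an alternative added after the data had been seen, a loess fit on CDS length and GC was subtracted over all genes. The log2FC was then 1.24 for CISH, 2.525 for SOCS1 and 0.88 for SOCS2, against 1.33, 2.57 and 0.95 before. The same 3 members, chosen on this contrast, were past the threshold. Whether length or GC had a part in their values was not tested.

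The pattern of SOCS1 over the 6 libraries was compared with that of 147 genes of at least 10 CPM and an absolute log2FC of at least 1. The highest Pearson correlations of log2(CPM + 0.5) were those of FAM83A (0.998), FN1 (0.998), CTSB (0.998), MAPRE3 (0.998) and GMPPA (0.996). Among the members, CISH reached 0.995 and SOCS2 0.986, whereas SOCS3 was at 0.414 and SOCS7 at -0.545. These correlations describe 6 points that fall into the 2 groups, so any gene with a clear difference between the groups and little spread has one near 1.

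Genes around the SOCS proteins were then compared, in 10 lists by role written from textbook knowledge with results of these data known. The lists hold 194 genes, of which 95 had enough counts. Of these, 40 (42.1%) passed the edgeR threshold, 30 higher and 10 lower, with a median log2FC of 0.14. Over all genes tested, 26.9% were called, 12.9% higher and 13.9% lower, with a median of 0.01, and the counts on each list stand beside these shares.

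Among 39 cytokine receptor genes, 12 were at 0 in all libraries and 16 could be tested. Of these, 6 rose and 2 fell, with a median log2FC of 0.53. IL10RA, the ligand-binding chain of the interleukin 10 receptor, had 2, 8 and 4 counts in sgCtrl against 24, 19 and 26 in sgN6AMT1, a log2FC of 2.38 (SE 0.38, edgeR adjusted p 2.25e-07). IL13RA1, a chain of the interleukin 13 receptor, rose from 16.3 ± 0.579 to 29.4 ± 3.52 CPM (SD, n = 3 each; edgeR adjusted p 6.29e-05). The oncostatin M receptor OSMR rose by 1.09 on the log2 scale (edgeR adjusted p 0.0164), and IL27RA fell by 0.57 (edgeR adjusted p 0.00603). OSMR was not past the threshold in DESeq2 (adjusted p 0.179), nor without sgCtrl replicate 3, sgN6AMT1 replicate 1 or sgN6AMT1 replicate 2 (0.0545 to 0.0715). IL27RA was not in DESeq2 (0.111) or without sgCtrl replicate 2 (0.0613), and with DESeq2, or with genes averaging 50 counts or more, 3 receptors were higher. Of 9 receptor tyrosine kinases only KIT, the stem cell factor receptor, could be tested, and it went from 9.52 ± 1.34 to 17.5 ± 4.10 CPM (SD, n = 3 each; edgeR adjusted p 0.00143). Its adjusted p was 0.0607 in DESeq2 and 0.0568 without sgN6AMT1 replicate 2.

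No JAK kinase rose. JAK1 stood at 76.6 ± 13.0 and 81.1 ± 4.46 CPM (SD, n = 3 each; edgeR adjusted p 0.644), and TYK2 at 33.4 ± 1.17 and 31.6 ± 5.76 CPM (edgeR adjusted p 0.707). JAK3 was at 0 in every library. JAK2, which serves the erythropoietin and growth hormone receptors, stood at 38.2, 45.9 and 26.6 CPM in sgCtrl and 25.9, 23.3 and 29.3 CPM in sgN6AMT1. Those groups overlapped, although edgeR called JAK2 lower (log2FC -0.54, SE 0.16, adjusted p 0.00492). Without sgCtrl replicate 2 the JAK2 value was -0.32 (edgeR adjusted p 0.222), without sgN6AMT1 replicate 2 the adjusted p was 0.0616, and DESeq2 gave 0.134, so the JAK2 call rests on single libraries.

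The STAT factors moved in different directions. STAT5A, which with STAT5B is known for switching on CISH, fell from 408, 392 and 383 CPM to 196, 181 and 213 CPM. Its groups were far apart, with a log2FC of -1.01 (SE 0.064, edgeR adjusted p 2.68e-25). STAT5B, its close paralog, stood at 143 ± 5.15 and 132 ± 8.24 CPM (SD, n = 3 each; edgeR adjusted p 0.280). STAT5A and STAT5B are near-identical over long stretches, so reads shared between them could be split by the counting. STAT6, the factor of interleukin 4 and 13, rose from 16.3 ± 1.80 to 33.6 ± 2.85 CPM (SD, n = 3 each; log2FC 1.05, edgeR adjusted p 4.79e-07). STAT3 fell from 176 ± 13.8 to 136 ± 11.4 CPM (SD, n = 3 each; edgeR adjusted p 4.62e-05). STAT2, an interferon factor, had a log2FC of -0.20 (SE 0.13, edgeR adjusted p 0.255). STAT4 had 0, 0 and 0 counts in sgCtrl against 0, 3 and 1 in sgN6AMT1. The calls on STAT5A, STAT3 and STAT6 were the same in all 15 alternatives.

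**Figure D4:**
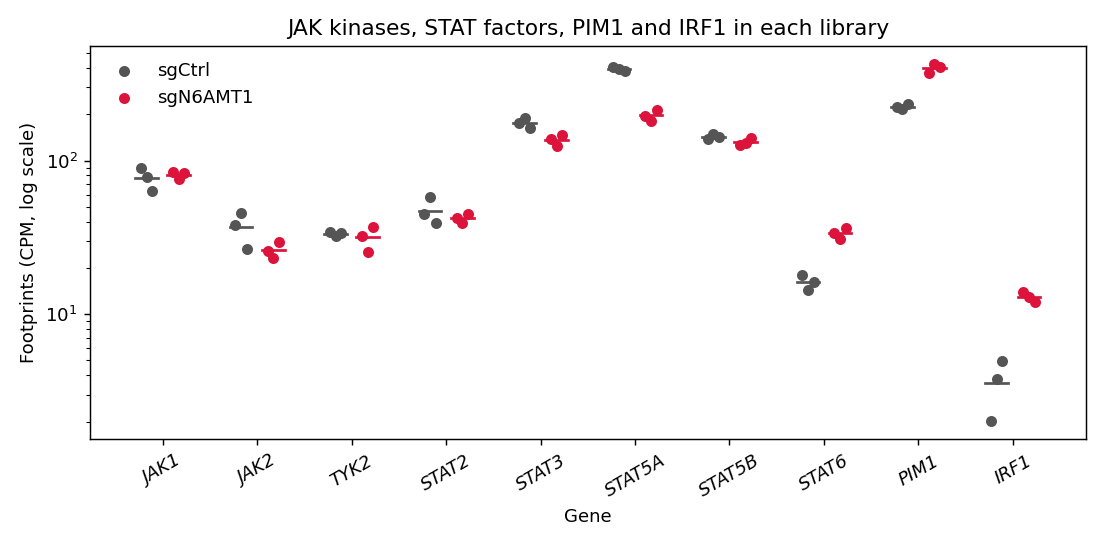
Footprints on JAK kinases and STAT factors, and on the targets PIM1 and IRF1, in CPM on a log axis with 1 point per library (sgCtrl grey, sgN6AMT1 red) and bars at the group means. STAT5A and STAT3 are lower in sgN6AMT1, STAT6, PIM1 and IRF1 are higher, and JAK1, JAK2, TYK2 and STAT2 overlap.

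Other genes that STAT5 is known to switch on did not share 1 direction. Of 13 in the table, besides CISH and SOCS2, which were not put on the list, 9 could be tested, 3 rose and 2 fell. PIM1, a kinase and classic STAT5 target, rose from 222, 218 and 233 CPM to 371, 426 and 405 CPM, a log2FC of 0.84 (SE 0.062, edgeR adjusted p 3.31e-21). BCL2L1, which encodes the survival protein BCL-XL, rose by 0.59 on the log2 scale (edgeR adjusted p 4.00e-05), and the D-type cyclin CCND3 by 0.30 (edgeR adjusted p 3.19e-04). Another D-type cyclin, CCND1, had 19, 36 and 28 counts in sgCtrl against 9, 6 and 11 in sgN6AMT1 (log2FC -1.55, edgeR adjusted p 3.94e-05). The transferrin receptor gene TFRC fell from 1952 ± 63.0 to 1551 ± 52.2 CPM (SD, n = 3 each; edgeR adjusted p 1.49e-09).

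Among 55 genes known to respond to interferon, 22 were tested, 8 rose and 1 fell, with a median log2FC of 0.22. IRF1, the interferon regulatory factor induced by interferon gamma, had 4, 11 and 10 counts in sgCtrl against 32, 30 and 22 in sgN6AMT1, a log2FC of 1.84 (SE 0.31, edgeR adjusted p 1.05e-06). B2M, the light chain of class I HLA molecules, rose from 419 ± 12.7 to 748 ± 13.6 CPM (SD, n = 3 each; edgeR adjusted p 1.69e-25). IFI6 rose by 1.10 and the peptide transporter gene TAP2 fell by 0.51 on the log2 scale (edgeR adjusted p 0.00281 and 0.00335). DESeq2 called neither of these (adjusted p 0.0777 and 0.0669).

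Of 7 tested genes on the STAT3 list, 6 rose and none fell, with a median log2FC of 0.49. JUNB, an AP-1 subunit, rose from 53.3 ± 7.31 to 94.1 ± 1.83 CPM (SD, n = 3 each; edgeR adjusted p 9.93e-10). ICAM1, an adhesion molecule, rose from 53.8 ± 8.89 to 106 ± 0.837 CPM (SD, n = 3 each; edgeR adjusted p 1.48e-12). CEBPD rose by 0.88 on the log2 scale (edgeR adjusted p 0.00818), but was not past the threshold in DESeq2 (adjusted p 0.129) or without sgCtrl replicate 2 or sgN6AMT1 replicate 3 (0.0537 to 0.0570). Without sgCtrl replicate 2, as in DESeq2, the count of 6 became 3.

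A list of 10 genes held SOCS-box partners and related ubiquitin ligase genes, and all 10 could be tested. Of these 10, 2 were called, both higher, where 26.9% of all tested genes were called. The median log2FC of the list was 0.01. CUL5, the cullin of SOCS-box ligases, stood at 51.7 and 52.0 CPM. RNF7, the RING protein that pairs with CUL5, rose from 18.7 ± 3.52 to 31.2 ± 3.96 CPM (SD, n = 3 each; log2FC 0.77, edgeR adjusted p 2.44e-04), and ELOB (elongin B) by 0.18 (edgeR adjusted p 0.0406). The ELOB call was lost in 10 alternatives, among them DESeq2 (adjusted p 0.253) and the fits without any single library other than sgN6AMT1 replicate 1 (0.0627 to 0.239). Of 28 other SOCS-box genes, 9 were tested and 1, WSB1, was called higher by 0.24 (edgeR adjusted p 0.0371), a call lost in 8 of the 15 alternatives, among them the fits without sgCtrl replicate 2, sgCtrl replicate 3 or any single sgN6AMT1 library. Among 12 tested genes on a list of other regulators, mostly inhibitors, 2 rose and 2 fell. The phosphatase CD45, encoded by PTPRC, rose by 0.61 (edgeR adjusted p 1.98e-05) and the STAT3 inhibitor PIAS3 by 0.60 (edgeR adjusted p 0.00746), the latter not in DESeq2 (adjusted p 0.128) or without sgCtrl replicate 2 (0.0833). The adaptor gene SH2B1 fell by 0.75 (edgeR adjusted p 0.0355), a call lost in 7 alternatives, among them the fits without sgCtrl replicate 2 (adjusted p 0.304) or any single sgN6AMT1 library.

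**Figure D5:**
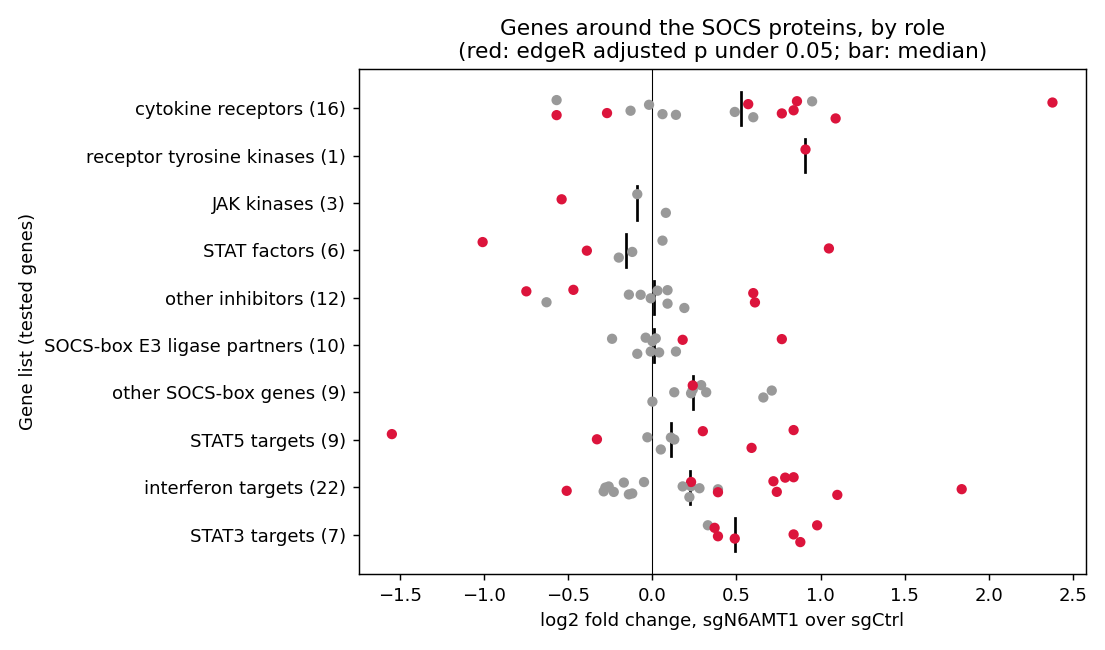
Log2FC values (sgN6AMT1 over sgCtrl) of the tested genes in 10 lists by role, with the number of tested genes in brackets. Points are genes, red where past the edgeR threshold, spread vertically for legibility, and black bars are list medians, which range from -0.16 for STAT factors to 0.91 for the lone receptor tyrosine kinase.

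Neighbours in the genome were counted to see whether the genes around the 3 members differed as well. Within 500 kb of CISH, 11 genes were tested and 3 were higher. MAPKAPK3, the nearest, starts 254 bases inside CISH on the opposite strand and had a log2FC of 0.24 (SE 0.20, edgeR adjusted p 0.404). SOCS1 had 4 tested neighbours, of which 1 was higher. RMI2 and LITAF, the nearest on each side, had values of 0.50 (SE 0.20, edgeR adjusted p 0.0580) and 0.52 (SE 0.29, edgeR adjusted p 0.177). RMI2 was past the threshold without TMM factors (adjusted p 0.0328) and without sgCtrl replicate 1 (0.0269). SOCS2 had 4 tested neighbours, of which 2 were higher. The nearest were MRPL42, with 0.09 (SE 0.10, edgeR adjusted p 0.546), and CRADD, which starts 107561 bases away and rose by 1.35 (SE 0.14, edgeR adjusted p 3.59e-14). Over the neighbours of all 8 members, 12 of 48 were higher and 1 was lower, where 12.9% of all tested genes were higher and 13.9% lower.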

How the data were processed

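Ribosome footprints of 3 sgCtrl and 3 sgN6AMT1 libraries of K562 cells were analysed from 1 deposited table of whole-number counts per transcript. The authors trimmed reads with cutadapt, mapped footprint-length reads to GRCh38 with HISAT2 and removed those on rRNA and tRNA. They mapped the rest to a canonical transcript per gene with bowtie2 and summed riboWaltz P-sites over each CDS, and for differential analysis also counted overlaps with an annotation. The sources do not say whether the table holds the first or the second kind of count, or how reads shared by paralogs or pseudogenes were treated. Deposited counts were neither normalized nor pooled. Molecular identifiers are not mentioned, so reads may not be independent molecules.

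The groups were compared by edgeR 4.0.16 under R 4.3.3 (robust quasi-likelihood F test, 2-sided, TMM factors, Benjamini-Hochberg adjustment, threshold 0.05), without covariates. filterByExpr at a minimum of 10 counts kept 9202 genes, and the 10128 removed held 0.465% of counts. CPM use TMM-adjusted totals. Log2 fold changes are sgN6AMT1 over sgCtrl. SE come from the F statistic, and 95% intervals are normal. Per the study, the 3 replicates of each group were separate lentiviral transductions, which the labels do not state.

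Transcripts were placed by GENCODE 44 on GRCh38 (17687, or 91.5%, matched), which differs from the annotation the authors used. CDS lengths exclude the stop codon. Upstream windows came from RefSeq (35116 windows, 27305 symbols). The members and lists were chosen with earlier results of these data known. All 8 members were named. From each list, genes past the threshold without overlap between groups were named, up to the 3 largest increases and 3 largest decreases, with the JAKs and STATs, of which 1 is not reported here. CUL5 and ELOB, and HEMK1 in the closing section, were named after their values were seen. Neighbours are tested genes starting within 500 kb of a member.

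Calls over all genes and on the lists, and the log2 fold changes of the tested members and named genes, were recomputed with DESeq2 1.42.0, limma-voom (limma 3.58.1), upper-quartile or RLE factors, library totals alone, all genes without a filter, genes averaging 50 counts or more, the replicate number as a block and each library left out in turn. The level order was recomputed without division by length, with library totals and without each sgCtrl library. Family sums and shares, count ratios, correlations and neighbour counts were computed in 1 setting. Removal of loess trends (span 0.5) on CDS length and GC content was chosen after seeing the data.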

Additional observations from a re-analysis of the deposited data

How the results depend on the processing

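In all 15 alternatives CISH and SOCS2 were past the threshold and higher in sgN6AMT1, with log2 fold changes of 1.24 to 1.39 and 0.88 to 1.01. SOCS1 was past it in the 14 that tested it (2.42 to 2.65), since a mean of at least 50 counts removed it and left 2 members past the threshold. The choice of tool moved the counts most: DESeq2 called 1324 genes in place of 2473 (585 higher and 739 lower), and 22 genes of the JAK-STAT lists in place of 40. Leaving out 1 library gave 1859 to 2322 calls over all genes and 29 to 38 on the lists. It turned the sign of 4 values that were not past the threshold, with log2 fold changes of -0.077 to 0.21 for SOCS4, -0.035 to 0.18 for JAK1, -0.20 to 0.051 for TYK2 and -0.072 to 0.11 for CUL5. SOCS5 ranged from 0.11 to 0.81. Of 30 named genes on the lists, 18 had the same direction and call in every alternative.

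Same-numbered libraries of the 2 groups did not deviate together (r of -0.06, 0.02 and 0.02, against -0.08 to 0.06 for other pairs), so the numbers were not taken as a pairing. With the replicate block, 2390 genes, 39 list genes and 3 members were called, WSB1 and ELOB being the calls lost among the named genes. Library totals alone moved the median log2 fold change of all genes by 0.05. Without division by CDS length, 4 neighbouring pairs of members in the sgCtrl order were separate in place of 5. Counts of 4 to 18 per library on SOCS5, SOCS6 and SOCS7 limit what could be detected for them. Whether the higher footprint counts of CISH, SOCS1 and SOCS2 came with more mRNA was not tested.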

Other observations

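Of the 3 higher neighbours of CISH, 1 was HEMK1, a methyltransferase of mitochondrial release factors and a relative of N6AMT1, which is also known as HEMK2. HEMK1 was singled out after its values were seen. It had 10, 18 and 10 counts in sgCtrl against 22, 25 and 18 in sgN6AMT1, so the CPM of the groups did not overlap (5.39 ± 0.711 and 10.1 ± 0.635 CPM, SD, n = 3 each). Its log2 fold change of 0.87 (SE 0.30) passed the edgeR threshold (Benjamini-Hochberg adjusted p 0.0187). DESeq2 did not call it (adjusted p 0.191), and the call was also lost without sgCtrl replicate 1, sgCtrl replicate 3 or sgN6AMT1 replicate 2 (0.0531 to 0.0817).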
